A study of Caenorhabditis elegans with 24 samples.

Results

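The genes described here are 10 small heat shock protein genes of Caenorhabditis elegans, out of 17118 genes that had a probe set of their own on the array. They are sip-1, hsp-12.1, hsp-12.2, hsp-12.3, hsp-12.6, hsp-16.2, hsp-16.41, hsp-17, hsp-25 and hsp-43. They were chosen by name, to set the germline gene sip-1 beside the somatic members of the family. The 10 genes were read by 11 probe sets, since sip-1 had 2, and no member shared a probe set with another gene. RNA of whole young adults was measured on 24 single-channel Affymetrix arrays, 4 in each of 6 groups. The groups were wild type N2 (ancestral), an xpa-1 deletion mutant (RB864, outcrossed 3 times) and a glp-1 point mutant (JK1107), each irradiated or handled alike without radiation. Worms grew at 25°C until 24 h past the vulval-crescent stage of L4, and the dose was 50 J/m2 of UVC with its peak at 254 nm. Worms were frozen 3 h after exposure. Each group held 2 arrays made in 2007, from 500 pg of RNA with the TargetAmp kit, and 2 made in 2008, from 100 ng with the Affymetrix Two-Cycle kit. The year and the labelling kit therefore cannot be told apart.

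Small heat shock proteins share an alpha-crystallin domain, assemble into oligomers and bind partly unfolded proteins without using ATP. In C. elegans the hsp-16 genes are silent or low in unstressed worms and are induced strongly through the heat shock factor HSF-1. Other members, such as sip-1 in oocytes and embryos or hsp-25 and hsp-43 in muscle and reproductive tract, are expressed during normal development. GLP-1 is the Notch receptor that keeps germline stem cells dividing, and loss-of-function worms raised at a restrictive temperature make almost no germ cells. XPA-1 is needed for nucleotide excision repair, which removes UV lesions from DNA.

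All values below are log2(normalized intensity + 32), on which an intensity of 0 reads 5.00. Differences are log2 differences on that scale, which understates changes of dim genes. An array is named by its year and replicate number, so 2008-2 is the second replicate of 2008. A gene was called when the adjusted p of limma was below 0.05 over all 22548 probe sets. Nothing in the labels says that replicates came from separate cultures, and p-values therefore reflect array-to-array spread that may be technical.

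The arrays of 2007 were dim, with medians of the deposited intensities between 4.24 and 8.42, against 68.9 to 190.5 in 2008. The xpa-1 transcript, the deleted gene, read 8.92 to 10.1 in the 8 N2 arrays and 5.00 to 6.59 in the 8 xpa-1 arrays. In glp-1 arrays it read 5.00 to 7.41. All 8 oocyte genes and all 6 germ line genes of the marker lists were called lower in glp-1 than in N2, irradiated or not. The marker lists also showed 5 of 7 intestine genes called higher in glp-1 under both treatments, and 0 of 8 sperm genes called in unirradiated worms. After UV the sperm gene spe-15 alone of its list was called, lower in glp-1 at -1.05 (adjusted p = 0.0038 by limma). In whole worms, fewer cells of a type and less RNA per cell cannot be told apart.

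**Figure D1:**
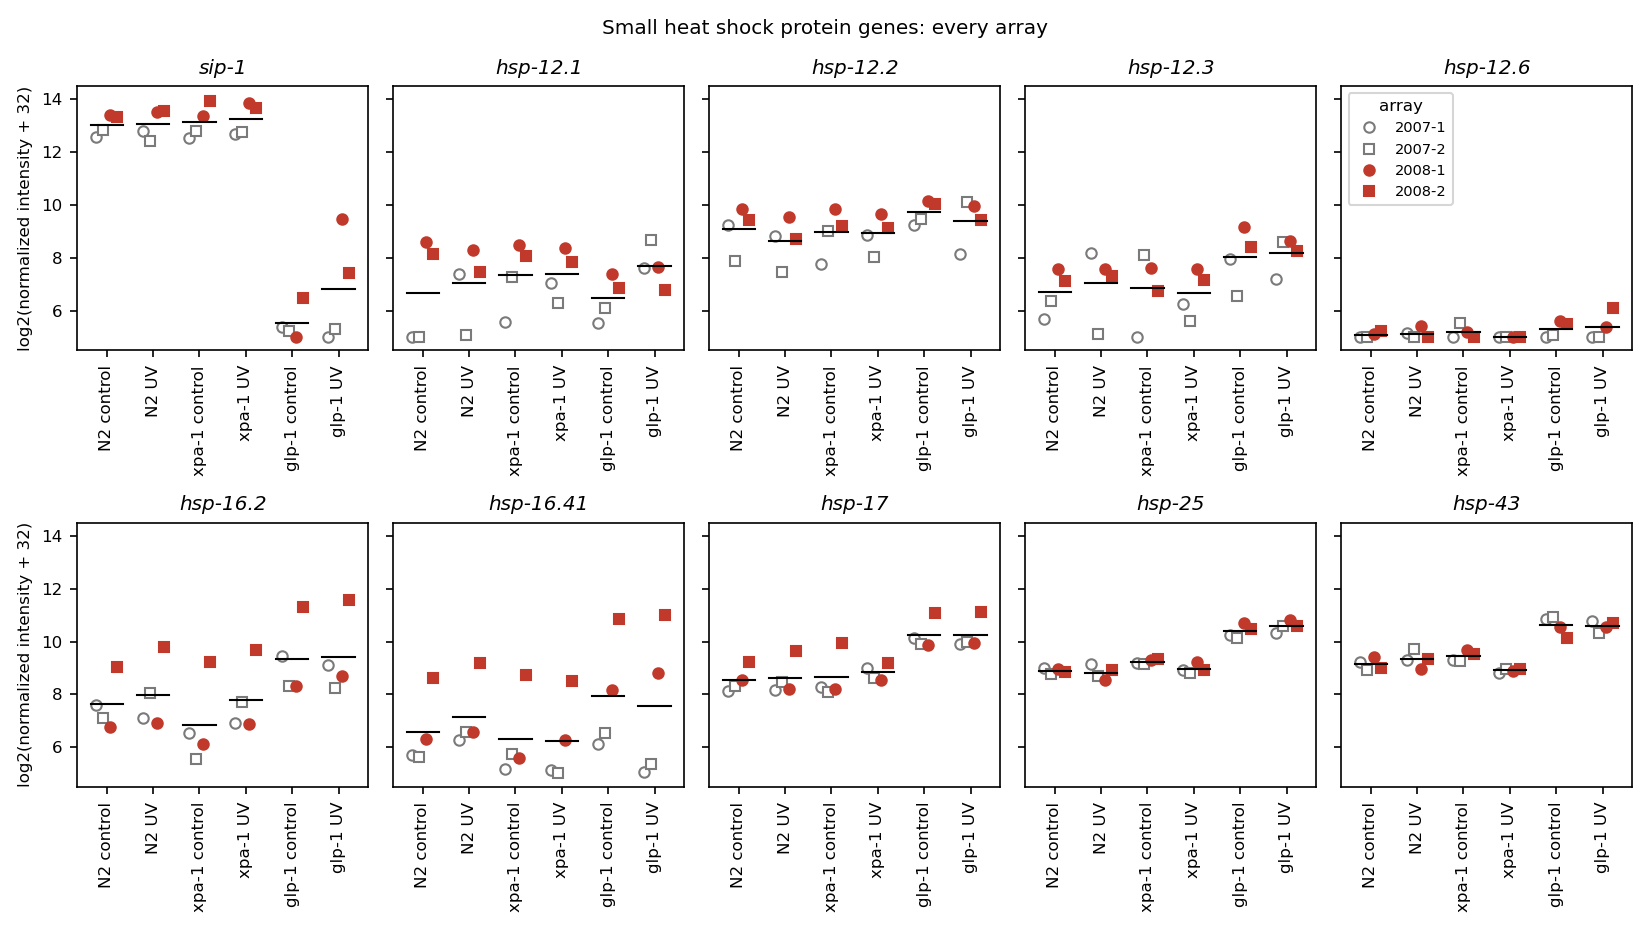
Level of each small heat shock protein gene in all 24 arrays, as log2(normalized intensity + 32), by strain and treatment. Open symbols are 2007 arrays and filled symbols 2008 arrays, circles replicate 1 and squares replicate 2, and the line is the group mean. sip-1 is low in the glp-1 groups, hsp-17, hsp-25 and hsp-43 are high there, and hsp-16.2 and hsp-16.41 are high in the 2008-2 arrays of every group.

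The comparison of glp-1 with N2 asks which members differ when the germ line is missing. In unirradiated worms 3 members were called higher in glp-1 (hsp-17, hsp-25 and hsp-43), 1 was called lower (sip-1) and 6 did not pass. Of all probe sets 37.7% were called in this comparison, 19.7% higher and 18% lower, so 4 of 10 members called is close to the background. The median difference of the members was 1.35, against 0.07 over all genes. In irradiated worms the same count held, again with hsp-17, hsp-25 and hsp-43 called higher and sip-1 lower. Of all probe sets 39.9% were called there, 20.3% higher and 19.5% lower. The median of the members was 0.94 and that of all genes 0.15. The balance of directions depended on the scaling. Of the called probe sets, 4450 of 8511 were higher in glp-1 controls and 4578 of 8986 after UV, against 1959 of 7084 and 1480 of 7839 with the intensities as deposited. Scaling to the 75th percentile gave 6124 of 9893 higher after UV. As deposited, the members called were 2 higher and 1 lower in controls and 1 of each after UV, and the median of all probe sets after UV went from 0.12 to -0.13.

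The germline member sip-1 encodes a small heat shock protein of oocytes and embryos. In N2 controls it read 12.56, 12.85, 13.39 and 13.34 in the arrays 2007-1, 2007-2, 2008-1 and 2008-2. In glp-1 controls it read 5.40, 5.25, 5.00 and 6.48 in the same order. All 16 N2 and xpa-1 arrays lay between 12.4 and 13.9, far above every glp-1 array. The difference in controls was -7.51 (SE 0.49, adjusted p = 2.63e-10 by limma). By size this fall ranked 1 of 22548 probe sets. The other sip-1 probe set, which read 5.00 in all 4 glp-1 control arrays, gave -6.26 (SE 0.40).

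After UV, sip-1 differed between glp-1 and N2 by -6.27 (SE 0.49, adjusted p = 3.71e-09 by limma), which ranked 6 of 22548 by size. The irradiated glp-1 arrays were uneven. They read 5.00 and 5.32 in 2007, 9.49 in 2008-1 and 7.43 in 2008-2. In deposited intensity the 2008 pair stood at 867.5 and 180.0, against -26.9 and 68.9 in the unirradiated glp-1 arrays of that year. The N2 and xpa-1 arrays of 2008 stood between 15463 and 20948. With both irradiated glp-1 arrays of 2008 left out, the difference was -7.51 (SE 0.31, adjusted p = 4.49e-12 by limma).

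Oocyte genes moved with sip-1 across the glp-1 arrays. The mean of the 8 oocyte genes was 8.34 in glp-1 UV 2008-1, 7.04 in glp-1 UV 2008-2 and 6.85 in glp-1 control 2008-2. In the other 5 glp-1 arrays it was 5.41 to 5.93, and in the 16 N2 and xpa-1 arrays 11.7 to 12.9. The summed intensity of the oocyte list was 3026 in glp-1 UV 2008-1 and 1028 in glp-1 UV 2008-2, while the other 6 glp-1 arrays held 110.5 to 878.2. The 6 germ line genes did not show this order over both years, with a summed intensity of 568.6 in glp-1 UV 2008-1 and 1197 in glp-1 UV 2007-1. Among the glp-1 arrays of 2008 alone, glp-1 UV 2008-1 was also the highest for these genes. The sums there were 371.3 in glp-1 UV 2008-2 and 191.4 and 425.1 in the controls. The part of residual oocyte RNA in the sip-1 values of these arrays was not tested.

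**Figure D2:**
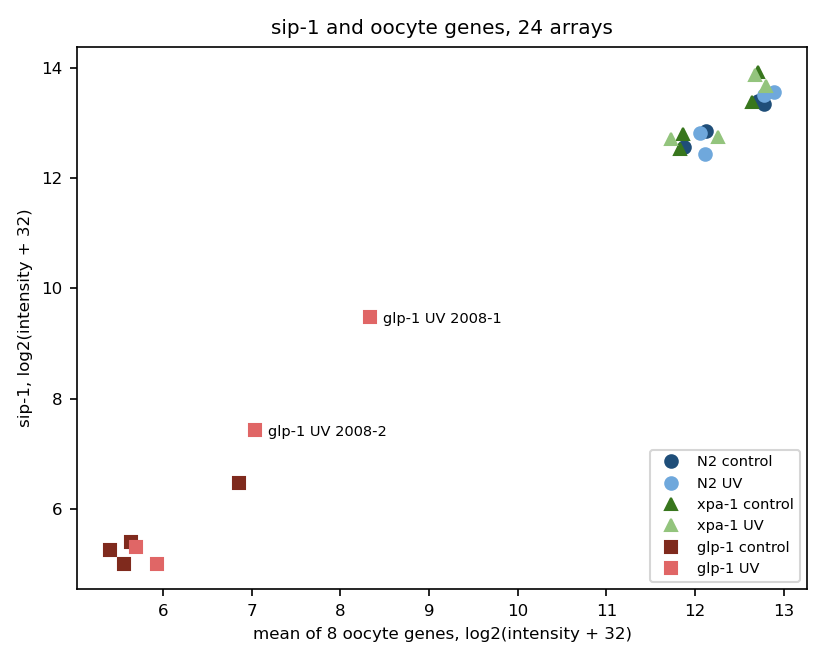
Level of sip-1 against the mean of the 8 oocyte genes, both as log2(intensity + 32), with 1 point per array for all 24 arrays. The 16 N2 and xpa-1 arrays lie together at the top right, and 6 glp-1 arrays lie at the bottom left. Between them lie glp-1 UV 2008-1 and 2008-2. Of the 6 glp-1 arrays, the unirradiated glp-1 control 2008-2 lies nearest to glp-1 UV 2008-2.

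The 5 genes whose profile over the 12 means of strain, treatment and year was nearest to that of sip-1 were rme-2, the oocyte yolk receptor, hil-5, a linker histone gene, cbd-1, an eggshell chitin-binding protein gene, C01G6.3 and plk-3, a polo-like kinase gene. Their root mean square differences from sip-1 were 0.28 to 0.35, on profiles that spread by 3.34. Their differences between glp-1 and N2 controls were -6.73 to -7.36. None of the other 9 members was near. The least distant, hsp-12.6, lay 3.43 away, more than the 3.34 by which the sip-1 profile spread, and ranked 9479 among 17117 genes.

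Among the somatic members, hsp-25 separated the strains with the least spread. Its product is found in muscle in C. elegans. It read 8.99, 8.77, 8.95 and 8.84 in N2 controls and 10.2, 10.1, 10.7 and 10.5 in glp-1 controls. All glp-1 values lay above all N2 values. The difference was 1.49 in controls (SE 0.15, adjusted p = 7.85e-08 by limma) and 1.75 after UV (SE 0.15). In xpa-1 controls hsp-25 read 9.14 to 9.36, and was 0.35 above N2 (95% interval 0.05 to 0.66, adjusted p = 1 by limma), which did not pass.

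The gene hsp-43, whose product has been localized to vulva, spermatheca and muscle, followed the same order. It read 9.22, 8.91, 9.41 and 9.01 in N2 controls and 10.9, 10.9, 10.5 and 10.1 in glp-1 controls. The groups did not overlap. The difference was 1.48 in controls (SE 0.19, adjusted p = 2.38e-06 by limma) and 1.25 after UV (SE 0.19). With the intensities as deposited, without quantile normalization, the difference after UV was 0.22 (adjusted p = 0.643 by limma).

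The third somatic member called was hsp-17. It read 8.12, 8.32, 8.54 and 9.24 in N2 controls and 10.1, 9.91, 9.88 and 11.1 in glp-1 controls. Here too the groups did not overlap, and the 2008-2 array was the highest in both. The difference was 1.69 in controls (SE 0.37, adjusted p = 9.2e-04 by limma) and 1.62 after UV (SE 0.37). When glp-1 and N2 arrays of the same number were subtracted, hsp-17 was higher in glp-1 in 8 of 8 pairs, by 1.34 to 2.01. It was not called from the 2008 arrays alone (adjusted p = 0.153 in controls by limma), nor from the intensities as deposited.

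**Figure D3:**
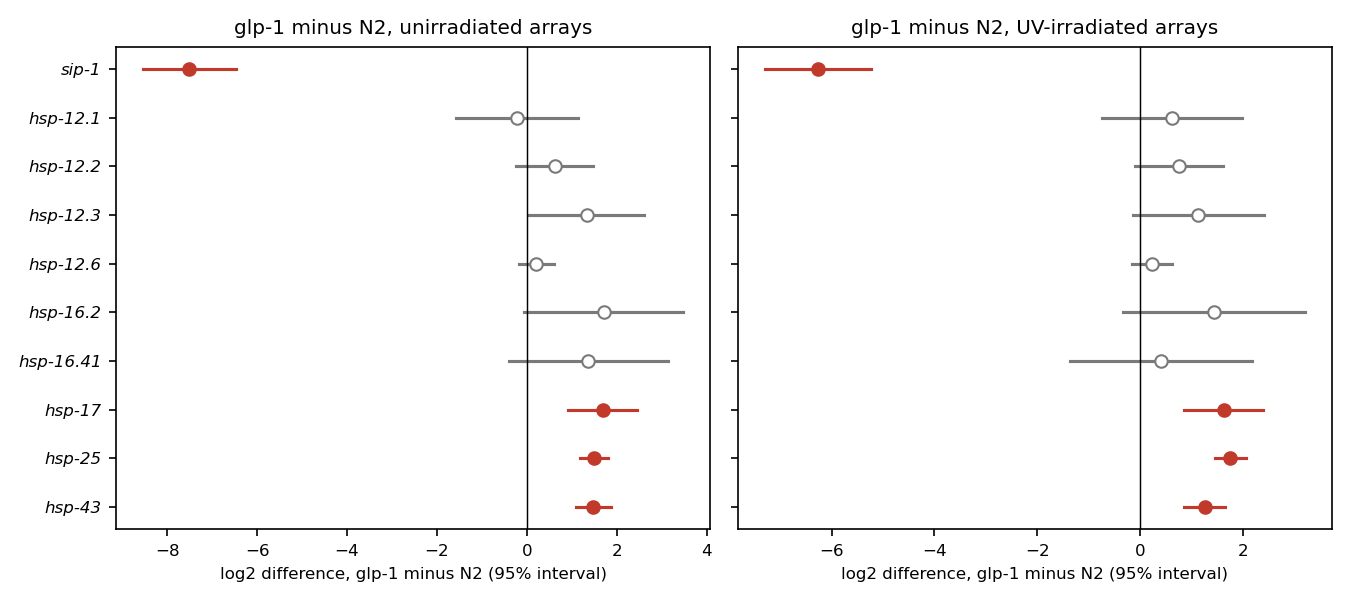
Log2 difference of each small heat shock protein gene between glp-1 and N2, with its 95% interval, in unirradiated (left) and irradiated worms (right). Filled red points passed the adjusted p limit of 0.05 and open grey points did not. sip-1 lies at -7.51 and -6.27, and the 3 called higher lie between 1.25 and 1.75 in both panels.

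The hsp-16 genes encode the classic heat-inducible small heat shock proteins of the worm, and hsp-16.2 and hsp-16.41 are neighbours in the genome by RefSeq's WBcel235 annotation. Both were higher in glp-1 on average, without passing in the fit that has no term for the replicate number. A fit with that term, given with the alternatives, called hsp-16.2 under both treatments and hsp-16.41 in controls. In controls hsp-16.2 read 7.60, 7.11, 6.78 and 9.05 in N2 and 9.45, 8.32, 8.30 and 11.3 in glp-1. These groups overlapped, since the N2 array 2008-2 read above 2 of the glp-1 arrays. The difference was 1.71 in controls (SE 0.85, adjusted p = 0.128 by limma) and 1.43 after UV (SE 0.85, adjusted p = 0.198). In pairs of the same number, hsp-16.2 was higher in glp-1 in 8 of 8, by 0.16 to 2.26.

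Leaving out either replicate of 2008 gained a call for hsp-16.2, in alternatives that were chosen after seeing the data. Without the 6 arrays 2008-2 it was called in controls at 1.52 (adjusted p = 0.00976 by limma) and after UV at 1.31 (adjusted p = 0.0216). Without the 6 arrays 2008-1 it was also called, at 1.77 (adjusted p = 0.00629) and 1.32 (adjusted p = 0.0319). Thus hsp-16.2 was called higher in glp-1 with either replicate of 2008 left out. With both kept, it was not called in the fit that has no term for the replicate number.

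Its neighbour hsp-16.41 behaved differently in the earlier year. In 2008 it was higher in glp-1 in 4 of 4 pairs, by 1.84 to 2.26, and in 2007 in 2 of 4. The pooled difference was 1.37 in controls (SE 0.85, adjusted p = 0.234 by limma) and 0.41 after UV (SE 0.85, adjusted p = 0.753). From the 2007 arrays alone, the irradiated glp-1 worms were lower by 1.22 (adjusted p = 0.019 by limma): they read 5.07 and 5.38 against 6.29 and 6.59 in N2. These readings were dim, with deposited intensities of -1.69 and -0.07 in irradiated glp-1 against 6.61 and 7.28 in irradiated N2. The part of the dim signal in this difference was not tested. The difference between the years in glp-1 minus N2 was 2.33 (SE 1.19, adjusted p = 0.298) and did not pass without a replicate term.

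Other hsp-16 genes shared probe sets, so each pair is reported as 1 reading. The probe set for hsp-16.1 and hsp-16.11 was called 2.19 higher in glp-1 controls (SE 0.75, adjusted p = 0.0251 by limma), and that for hsp-16.48 and hsp-16.49 2.13 higher (SE 0.82, adjusted p = 0.046). After UV neither passed, at 1.69 (adjusted p = 0.081) and 0.66 (adjusted p = 0.569). Of the other 4 family members with a probe set of their own, only ZK1128.7 was called, at 1.10 in controls and 1.34 after UV. The genes hsp-16.20, hsp-16.21 and Y55F3BR.6 were not, with differences from -0.09 to 0.50. They read at most 6.77, 6.34 and 7.04, with 4, 8 and 5 of the 24 arrays at the floor of 5.00. At this signal a change may not have been detectable.

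The hsp-12 genes encode unusually short family members, and none was called between glp-1 and N2 in the fit over all arrays. Some were called under other settings: hsp-12.3 in 6 of 27 in controls and 3 of 27 after UV, hsp-12.1 in 1 of 27 each and hsp-12.6 in 2 of 26 after UV. The gene hsp-12.3 was 1.33 higher in glp-1 controls (SE 0.61, adjusted p = 0.0969 by limma) and 1.13 higher after UV (SE 0.61, adjusted p = 0.156). In 2008 it was higher in glp-1 in 4 of 4 pairs, by 0.96 to 1.57, and from the controls of 2008 alone it was called at 1.44 (adjusted p = 0.0172 by limma). In 2007 the pairs ran from -0.99 to 3.47. The gene hsp-12.2 differed by 0.62 in controls and 0.76 after UV (SE 0.41 each, adjusted p = 0.268 and 0.158), also higher in 4 of 4 pairs of 2008.

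The gene hsp-12.1 pointed in opposite directions in the 2 years. In 2008 it was lower in glp-1 in 4 of 4 pairs, with differences of -0.67 to -1.32. In 2007 it was higher in 4 of 4, by 0.24 to 3.62. It was called at -1.26 in the controls of 2008 alone (adjusted p = 0.045 by limma), and at 2.07 after UV without the irradiated glp-1 arrays of 2008 (adjusted p = 0.0176). The N2 controls read 5.00 and 5.00 in 2007, at the floor of the scale, and 8.61 and 8.16 in 2008. The difference between the years was -2.34 (SE 0.68) with an adjusted p of 0.0565 by limma, against 6.19% of all probe sets called and 0 of 10 members. Dim 2007 readings moved with this result, as the deposited hsp-12.1 intensities were -3.53 to 16.43 in 2007 and 97.4 to 877.3 in 2008. Their part in it was not tested.

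The gene hsp-12.6 is a known target of the longevity factor DAF-16, and in the genome it is the neighbour of hsp-12.3. It was near the floor throughout, between 5.00 and 6.09 over the 24 arrays, with the highest reading in glp-1 UV 2008-2. The difference between glp-1 and N2 was 0.21 in controls and 0.23 after UV (SE 0.19 each, adjusted p = 0.439 and 0.362 by limma). At this signal a change may not have been detectable. The 5 genes of nearest profile (dnj-1, clec-132, str-41, R02F11.2 and ctns-1) lay within 0.07 to 0.10 of it, on a profile that spread by only 0.20.

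Genes around the family were read from pathway lists. Of 4 genes for heat shock factor and its regulators, 2 were called lower in glp-1 controls: hsf-1, the heat shock transcription factor, at -2.35 (SE 0.36, adjusted p = 2.62e-05 by limma), and ddl-1, a negative regulator of HSF-1, at -0.70 (SE 0.17). Of 14 genes for HSP70, HSP90, HSP110 and their partners, 2 were called higher and 6 lower, among them the HSP90 co-chaperone gene ahsa-1 at -1.33, the J-protein gene dnj-13 at -0.90, bag-1 at -0.79 and hsp-90 at -0.74. After UV the inducible HSP70 gene hsp-70 was called 3.15 higher in glp-1 than in N2 (SE 0.69, adjusted p = 9.86e-04 by limma). Its UV effect was 0.67 within glp-1 (SE 0.69, adjusted p = 0.922 by limma) and 0.39 within N2 (SE 0.69), and neither passed. A strain difference of hsp-70 particular to irradiated worms was therefore not shown. Of 8 subunits of the cytosolic chaperonin, which folds actin and tubulin, 5 were called lower in glp-1 controls, with cct-1 at -1.11 and cct-6 at -1.03. Of all probe sets 18% were called lower and 19.7% higher in controls. The 2 of 14 called higher are thus below the background share. The median of the chaperonin list and of the HSF-1 list lay below that of all genes.

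The DAF-16 list ran the other way. Of 8 genes, 6 were called higher in glp-1 controls and 0 lower, with scl-20 at 5.11, the metallothionein gene mtl-1 at 3.86, dod-3 at 3.02 and the catalase gene ctl-2 at 2.01. Besides the intestine genes, 3 of 7 neuron, 2 of 6 hypodermis and 1 of 7 body wall muscle genes were called higher in glp-1 controls, where 19.7% of all probe sets were. In controls the muscle share is thus below that background and the hypodermis share not far above it. After UV the muscle genes unc-27 (0.97, adjusted p = 0.0111 by limma) and unc-22 (0.95, adjusted p = 0.0453) were called higher. So were the neuron genes rab-3, snt-1, egl-3 and egl-21 and the hypodermis genes elt-3 and bli-1, where 20.3% of all probe sets were called higher. The remaining muscle, neuron and hypodermis genes did not pass there. The part of intestine and other tissue RNA in the rise of hsp-17, hsp-25 and hsp-43 was not tested.

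The 5 nearest profiles to hsp-43 were nucb-1, F36A2.3, osta-2, lron-9 and nkb-3, within 0.16 to 0.17 root mean square, and these were 1.21 to 1.42 higher in glp-1 controls. Among the members hsp-25 lay nearest to hsp-43, at rank 140 of 17117 genes, and hsp-17 nearest to hsp-16.2, at rank 276. The 5 genes nearest to hsp-16.2 were pfn-3, mrp-2, aex-5, atg-2 and nex-2, within 0.18 to 0.23. This measure averages both replicates of a year. Between the 2008 replicates these 5 genes differed by -0.35 to 0.14, unlike hsp-16.2, as described next.

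The members hsp-16.2 and hsp-16.41 moved further between the 2008 replicates than by strain or radiation, in a comparison that was added after the data were seen. In all 6 groups the array 2008-2 read higher than 2008-1 for hsp-16.2, hsp-16.41 and hsp-17. For hsp-16.2 the deposited intensities were 158.8 and 1236 in N2 controls, 267.1 and 1779 in irradiated N2, 101.1 and 781.9 in xpa-1 controls and 197.6 and 1947 in irradiated xpa-1. In glp-1 they were 283.4 and 4263 in controls and 464.8 and 6182 after UV. The ratio of the second replicate to the first was 6.66 to 15.04. For hsp-16.41 it was 6.08 to 13.2 and for hsp-17 it was 1.70 to 3.54.

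Fitted over the 12 arrays of 2008, replicate 2 was higher than replicate 1 by 2.82 for hsp-16.2 (SE 0.11, adjusted p = 0.00732 by limma), by 2.53 for hsp-16.41 (SE 0.14, adjusted p = 0.0171) and by 1.15 for hsp-17 (SE 0.16, adjusted p = 0.0478). One member was called lower in replicate 2, hsp-12.1 at -0.62 (SE 0.08, adjusted p = 0.0416). The 4 members called stand against 0.843% of all probe sets, 0.39% higher and 0.452% lower. By the size of the rise, hsp-16.2 ranked 1 and hsp-16.41 ranked 2 of 22548 probe sets. The shared hsp-16 probe sets ranked 3 and 4, at 2.32 (adjusted p = 0.0224) and 2.23 (adjusted p = 0.0299). The 2 probe sets shared by the HSP70 genes F44E5.4 and F44E5.5 ranked 5 and 8, at 1.81 and 1.78 (adjusted p = 0.0489 and 0.0435).

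Some calls were lost when 1 array was left out. With each of the 12 arrays left out in turn, 0 to 2 members were called, while the value for hsp-16.2 stayed between 2.76 and 2.93 and its adjusted p reached at most 0.0684. For hsp-16.41 the values stayed between 2.40 and 2.59, with an adjusted p of at most 0.0899. The calls of hsp-17 and hsp-12.1 were lost without any 1 of the 12 arrays, with values of 1.03 to 1.25 and -0.66 to -0.56 and adjusted p up to 0.127 and 0.122.

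Other members did not share the rise. The constitutive somatic genes hsp-25 and hsp-43 differed by -0.06 each between the 2008 replicates (SE 0.10 and 0.12), and hsp-12.6 by 0.01. The gene sip-1 differed by -0.04 (SE 0.44). The genes hsp-12.2 and hsp-12.3 were lower in the second replicate in 6 of 6 groups, at -0.52 and -0.53, without passing (adjusted p = 0.079 and 0.07 by limma). In the surrounding lists dnj-12, a J-protein gene, was called at 0.43 and hsp-70 read 1.80 higher without passing (adjusted p = 0.0723). The gene hsf-1 itself differed by 0.07 (SE 0.06). Of the tissue markers 1 intestine gene was called higher and 1 lower, and 0 of 8 oocyte genes were called.

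In 2007 the replicates did not differ this way. None of the 10 members was called between replicate 2 and replicate 1, and 0% of all probe sets were, with 1068 of 17118 genes at an unadjusted p under 0.05. The difference was -0.29 for hsp-16.2 (SE 0.34) and 0.23 for hsp-16.41 (SE 0.15). A test of the difference between the years called hsp-16.2 at 3.11 (SE 0.37, adjusted p = 0.0132 by limma) and hsp-16.41 at 2.29 (SE 0.20, adjusted p = 0.00129), against 0.0266% of all probe sets. The labels give the 2008 replicates the same description in each group, and what separated them was not tested.

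**Figure D4:**
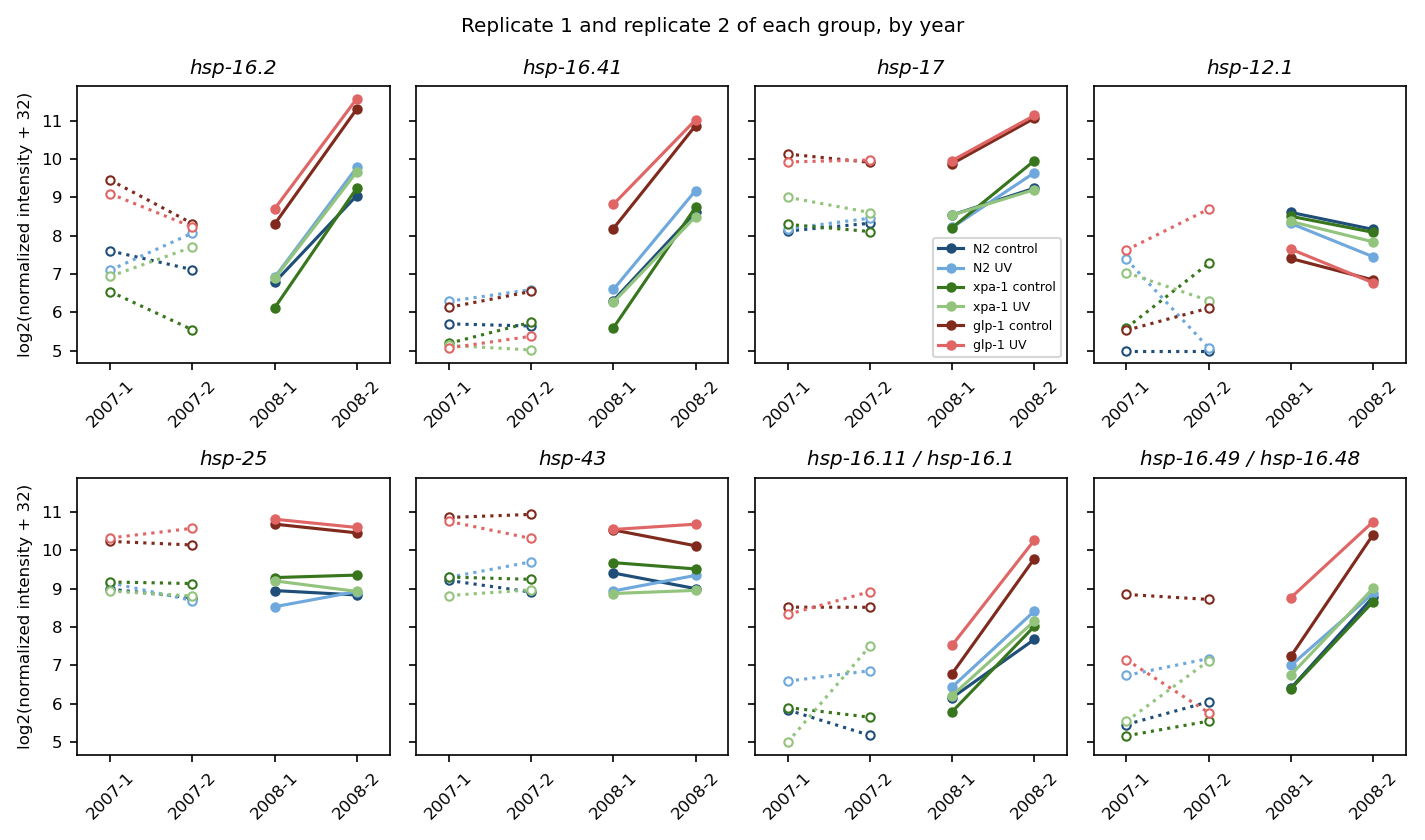
Replicate 1 and replicate 2 of each of the 6 groups in 2007 (dotted, open) and 2008 (solid, filled), as log2(normalized intensity + 32), for 6 members and 2 shared hsp-16 probe sets. The 6 lines of 2008 climb together for hsp-16.2, hsp-16.41, hsp-17 and the shared hsp-16 probe sets, and lie nearly level for hsp-25 and hsp-43.

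The glp-1 difference stood beside this shift. Within 2008, hsp-16.2 was higher in glp-1 than in N2 of the same number in 4 of 4 pairs, by 1.52 to 2.26, in both the low and the high replicate. The 2008 readings of hsp-16.2 in N2 ran from 6.78 to 9.78 and those in glp-1 from 8.30 to 11.6. The strain ranges overlapped while the pairs did not cross.

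Radiation was the study's treatment, and no member was called for it. In N2, 0 of 10 members were called and 0% of all probe sets. In xpa-1, 0 members and 0.031% of probe sets were called. In glp-1 it was 0 members and 0%, and over the mean of the 3 strains 0 members and 0.031%. At an unadjusted p under 0.05, limma gave 0 members in N2, 1 in xpa-1, 1 in glp-1 and 0 for the mean. The 2 were hsp-43 in xpa-1, at -0.53 (SE 0.19, adjusted p = 0.619), and sip-1 in glp-1, at 1.28 (SE 0.49, adjusted p = 0.592).

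The heat-inducible members were not called for UV in any strain. For hsp-16.2 the UV effect was 0.33 in N2 (95% interval -1.44 to 2.10), 0.94 in xpa-1 (-0.84 to 2.71) and 0.06 in glp-1 (-1.72 to 1.83). For hsp-16.41 it was 0.60 in N2 (-1.17 to 2.37), -0.09 in xpa-1 and -0.36 in glp-1. These intervals come from the fit that has no term for the replicate number. They are wide, since they hold the spread between the 2008 replicates, and do not show that UV left the genes alone. No alternative called hsp-16.2 or hsp-16.41 for UV within a strain. The intervals of hsp-25 were the narrowest, with -0.06 in N2 (-0.36 to 0.25), -0.27 in xpa-1 (-0.57 to 0.04) and 0.20 in glp-1 (-0.11 to 0.50).

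In worms with a germ line sip-1 was not called after UV. The effect was 0.04 in N2 (95% interval -0.99 to 1.07) and 0.09 in xpa-1 (-0.94 to 1.12). These intervals do not show that sip-1 stayed level. In glp-1 the effect of 1.28 rested on 2008: it was -0.16 from the 2007 arrays alone and 2.72 from the 2008 arrays alone, neither called (adjusted p = 0.909 and 0.19 by limma). Without the irradiated glp-1 pair of 2008 it was 0.03. Without that pair hsp-12.1 was called instead, at 2.65 (adjusted p = 0.022), from the dim 2007 arrays.

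Whether strains differed in their UV effect was tested directly. None of the 10 members was called for xpa-1 against N2 or for glp-1 against N2, and 0% of all probe sets were in either. At an unadjusted p under 0.05 limma gave 1 member and 0 members. That member was hsp-43 in xpa-1 against N2, at -0.72 (SE 0.26, adjusted p = 1).

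**Figure D5:**
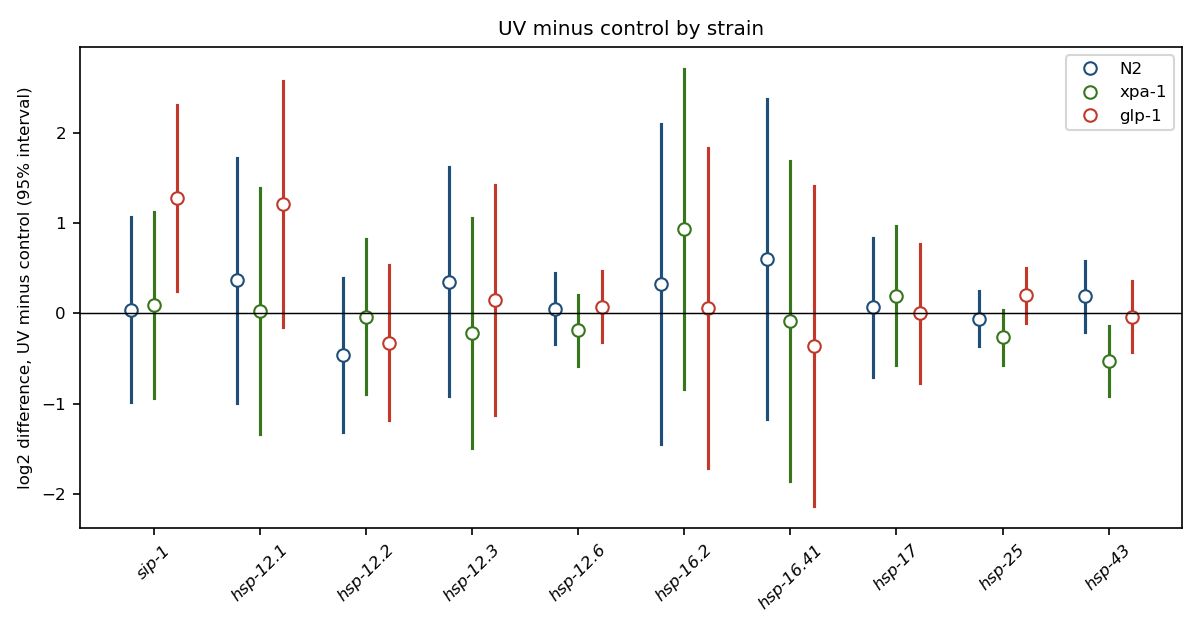
Log2 difference between irradiated and control worms for each small heat shock protein gene in N2, xpa-1 and glp-1, with 95% intervals. All points are open because none passed the adjusted p limit, and the intervals of hsp-16.2 and hsp-16.41 are the widest.

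The repair mutant did not differ from N2 in any member by the test used. In controls 0 of 10 members and 0.00887% of probe sets were called, and after UV 0 members and 0.0133%. At an unadjusted p under 0.05, limma gave 1 member in each: hsp-25 in controls, given above, and hsp-43 after UV, at -0.42 (SE 0.19, adjusted p = 1). For hsp-16.2 the difference was -0.77 in controls (95% interval -2.55 to 0.997). The glp-1 and xpa-1 comparisons share the N2 arrays, and the UV comparisons share their arrays with the strain comparisons.

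Between the years 6 members were called higher in 2008, against 52.1% of all probe sets called and 24.1% called higher. These were sip-1 at 1.22 (SE 0.21, adjusted p = 2.45e-04 by limma), hsp-12.1 at 1.45, hsp-12.2 at 0.90, hsp-12.3 at 1.04, hsp-12.6 at 0.23 and hsp-16.41 at 2.52 (SE 0.48). The median of all genes was -0.14, and kit, input and scaling changed with the year. Scaling each array to its 75th percentile turned sip-1 to -0.27 (adjusted p = 0.214), so its direction between years is not settled. The year did not move hsp-25 or hsp-43 past the limit, at 0.14 (SE 0.08) and -0.06 (SE 0.09).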

How the data were processed

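Single-channel Affymetrix arrays of 24 RNA samples were analysed. The deposited intensity values, on a linear scale with some below 0, were made by the authors; no source used here names their summary method, and the labels' protocols give only the labelling kits. Quantile normalization over all 24 arrays came first, then a floor of 0, then log2(value + 32). Limma 3.58.1 in R 4.3.3 fitted 6 groups and a year term, with Benjamini-Hochberg adjustment over 22548 probe sets; year comparisons used strain, treatment and year means. Of these probe sets 20766 named 1 gene, 887 several and 895 none, by the platform annotation; a gene was read from its brightest probe set naming it alone. All 10 members were named; list genes were named when called, at most 4 per list by smallest p, and 5 nearest profiles for each of sip-1, hsp-12.6, hsp-16.2 and hsp-43. The members and lists were chosen with earlier results of these data known. The number of arrays limits the precision. The tests were checked on simulated data. Alternatives changed the normalization, the added constant, the filter, the model, the weights, the threshold and the arrays used.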

Additional observations from a re-analysis of the deposited data

Results flagged for a closer look

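In 5 of 66 groups of 4 arrays, 1 array stood apart from the other 3 by Dixon's test on the log2 scale; chance alone marks about 1 in 20 groups. Of these, 4 were replicate 2 of 2008, in the genes that were high in those arrays throughout. The gene hsp-16.41 read 9.18 in irradiated N2 2008-2, next to 6.60 at most in the others, and 8.74 in xpa-1 control 2008-2, next to 5.74. The gene hsp-17 read 11.1 in irradiated glp-1 2008-2, next to 9.97, and 9.95 in xpa-1 control 2008-2, next to 8.29. The other was the second sip-1 probe set, which read 7.50 in irradiated glp-1 2008-1 (deposited intensity 188.7), next to 5.33.

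The difference between replicate 2 and replicate 1 was larger in 2008 than in 2007 by 3.11 for hsp-16.2 and by 2.29 for hsp-16.41, both by a test of the difference itself. What separated the 2008 replicates was not tested.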

How the results depend on the processing

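For glp-1 against N2, sip-1, hsp-25 and hsp-43 in controls, and sip-1 and hsp-25 after UV, were called under all 27 alternatives tried. Of these genes sip-1 ranged from -9.99 to -6.19 in controls. The gene hsp-17 was not called from 2008 alone or with intensities as deposited, and hsp-43 after UV only with the latter, where 2 members were called after UV in place of 4. The gene hsp-12.3 gained a call in controls with 75th percentile scaling, normalization within each year, the compared groups alone, array weights (adjusted p = 0.00473 by limma), 1 weight per year (0.00242) and 2008 alone. After UV it gained one with either weighting and without N2 UV 2007-1. From 2007 alone, where its readings were dim, hsp-16.41 after UV turned to -1.22.

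With the replicate number as a block, 6 members were called in controls and 5 after UV, adding hsp-16.2 at 1.71 and 1.43 (adjusted p = 2.91e-04 and 0.00137 by limma) and, in controls, hsp-16.41 at 1.37 (adjusted p = 0.0361 by limma). Replicate differences correlated between groups at -0.15 to 0.185 in 2007 and 0.0293 to 0.438 in 2008, with 3 of 15 and 11 of 15 pairs of groups over 0.1. Since not every pair was over 0.1, the number was not taken to pair the arrays, although in 2008 the arrays of 1 number shared the hsp-16 shift in all 6 groups. The count for the change of glp-1 minus N2 between years went from 0 to 1 with the block (hsp-16.41 at 2.33, adjusted p = 2.6e-04).

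Under UV, array weights called 1 member in xpa-1 (hsp-43), 1 in glp-1 and 1 in the mean of strains (sip-1 in both). With 1 weight per year, 1 was called in glp-1, and with the irradiated glp-1 pair of 2008 left out, 1 (hsp-12.1). For the year difference of glp-1 minus N2, counts in place of 0 were 2 as deposited, 2 with 75th percentile scaling, 4 with normalization within each year, 1 with 100 added and 1 without the dimmest 40%, and 0 to 1 with each array left out.

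Between years, 6 became 10 as deposited or normalized within each year, where hsp-43 turned to 3.79 and 3.64. It became 3 at an adjusted p under 0.01 or without the 2008-2 arrays, and 4 to 6 with each array left out. Over all settings hsp-12.6 lost its call in 27 of 35 and hsp-12.3 in 20 of 36. With 75th percentile scaling sip-1 turned to -0.27. Between the 2008 replicates, 4 became 2 as deposited, 2 with 1 added in place of 32, 1 at an adjusted p under 0.01, and 0 to 2 with each array left out. The difference of that contrast between years went from 2 to 0 with 1 added, 1 at an adjusted p under 0.01, and 1 to 2 with each array left out. The causes were not tested.

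Limits: many 2007 readings lie near the background, so small changes of dim genes such as hsp-12.6 and hsp-12.1 cannot be seen there, and whole-worm RNA does not separate tissues.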
